A study of Homo sapiens with 24 samples.

Results

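KAP1, which KRAB zinc finger proteins recruit to chromatin, and the HUSH complex are silencing factors. From this machinery 10 genes were followed here across cell states and knockdowns. They were chosen by symbol, as the rows of both count tables whose Ensembl identifier belongs to TRIM28, SETDB1, MPHOSPH8, PPHLN1, MORC2, ATF7IP, HDAC1, CBX1, CBX3 or CBX5. These are 10 of 60671 genes in each table, and all 10 passed the filter on low counts in every comparison. The 24 sequenced libraries of polyadenylated RNA came from 2 established lines of human embryonic stem cells, called H1 and H9, and form 8 groups of 3. In H1 the groups were CARHSP1 knockdown and nontargeting primed cells, ZNF8 knockdown and nontargeting naive cells, and ZIC2 knockdown and nontargeting cells on day 2 of ectoderm differentiation. Doxycycline is listed for all 6 H1 groups, controls included, so no comparison separates it. In H9 the groups were naive and primed cells, for which no genotype or treatment is listed. The sources used here do not give the form of the knockdown, its guides or whether a line was 1 clone. Nothing in the labels says that replicates were separate cultures, so the spread behind each p-value is that of these samples and may be technical.

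As background, a KRAB zinc finger protein binds DNA through its fingers and holds KAP1, the product of TRIM28, through its KRAB domain. KAP1 in turn brings in the methyltransferase SETDB1, which places the silencing mark H3K9me3, together with histone deacetylases and HP1 proteins, which bind that mark. HUSH reads and spreads the same mark over transposable elements and long transcribed inserts. In pluripotent cells both systems are known for silencing endogenous retroviruses and LINE elements. ZNF8, 1 of the knockdown targets, is itself a KRAB zinc finger gene, ZIC2 encodes a zinc finger transcription factor of early neural development, and CARHSP1 an RNA-binding protein with a cold shock domain.

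TRIM28 (ENSG00000130726) lies on the plus strand at chr19:58544091-58550722 (GRCh38, GENCODE 29, as are the others) and encodes the KAP1 corepressor. SETDB1 (ENSG00000143379, chr1:150926263-150964744, plus strand) is its H3K9 methyltransferase, and ATF7IP (ENSG00000171681, chr12:14365632-14502935, plus strand) encodes the partner that stabilises SETDB1. MPHOSPH8 (ENSG00000196199, chr13:19633681-19673459, plus strand) encodes MPP8, the chromodomain subunit of HUSH, and PPHLN1 (ENSG00000134283, chr12:42238447-42459715, plus strand) encodes its subunit periphilin. MORC2 (ENSG00000133422, chr22:30925130-30968298, minus strand) is an ATPase that HUSH recruits to compact chromatin. HDAC1 (ENSG00000116478, chr1:32292086-32333635, plus strand) is a histone deacetylase of the NuRD complex, which KAP1 binds. CBX5 (ENSG00000094916, chr12:54230940-54280133, minus strand), CBX1 (ENSG00000108468, chr17:48070052-48101521, minus strand) and CBX3 (ENSG00000122565, chr7:26201162-26213356, plus strand) encode the 3 HP1 proteins, alpha, beta and gamma. Reads of some are uncertain, because the sources used here do not give a strand setting for the counting. The end of SETDB1 overlaps CERS2, which averaged 101 CPM, on the opposite strand over 4162 bases. PPHLN1 spans 14041 bases of ZCRB1, which averaged 67.5 CPM, on the opposite strand. The start of CBX3 overlaps 368 bases of HNRNPA2B1, which averaged 1964 CPM. CBX3 also has 10 named pseudogenes, with a summed mean of 9.89 CPM, and CBX1 has 5, with 1.17 CPM.

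Promoter windows of 300 bases, 250 before and 50 after the gene's start, were found in RefSeq (GRCh38.p14) for 9 of the 10 genes, and TRIM28 was not among them. The 4 shown belong to the members whose levels followed each other most closely over the groups, MPHOSPH8 with PPHLN1 and ATF7IP with CBX5. Capitals mark matches, on either strand, to 6 motifs: CCGGAAG of ETS factors, the NRF1 motif, GGGCGG of SP and KLF factors, CAGCAGG of ZIC factors, CCAAT, and TTTCGCGC of E2F. Opposite-strand matches read CCGCCC and ATTGG here. The windows lie at chr13:19633409-19633708 (plus strand) for MPHOSPH8, chr12:42325917-42326216 (plus) for PPHLN1, chr12:14365432-14365731 (plus) for ATF7IP and chr12:54280073-54280372 (minus) for CBX5. The PPHLN1 window lies inside the GENCODE gene and holds the 5′ end of ZCRB1.
MPHOSPH8: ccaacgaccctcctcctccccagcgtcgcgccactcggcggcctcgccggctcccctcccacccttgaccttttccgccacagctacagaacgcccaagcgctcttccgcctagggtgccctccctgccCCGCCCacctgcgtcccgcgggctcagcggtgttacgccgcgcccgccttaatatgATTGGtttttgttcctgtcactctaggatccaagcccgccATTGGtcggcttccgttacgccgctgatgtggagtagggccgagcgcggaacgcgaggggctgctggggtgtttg
PPHLN1: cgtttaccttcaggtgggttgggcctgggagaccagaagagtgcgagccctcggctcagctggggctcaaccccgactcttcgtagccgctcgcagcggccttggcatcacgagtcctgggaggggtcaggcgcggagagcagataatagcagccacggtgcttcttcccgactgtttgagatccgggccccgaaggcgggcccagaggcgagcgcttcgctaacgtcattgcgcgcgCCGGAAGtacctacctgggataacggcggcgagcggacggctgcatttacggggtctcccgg
ATF7IP: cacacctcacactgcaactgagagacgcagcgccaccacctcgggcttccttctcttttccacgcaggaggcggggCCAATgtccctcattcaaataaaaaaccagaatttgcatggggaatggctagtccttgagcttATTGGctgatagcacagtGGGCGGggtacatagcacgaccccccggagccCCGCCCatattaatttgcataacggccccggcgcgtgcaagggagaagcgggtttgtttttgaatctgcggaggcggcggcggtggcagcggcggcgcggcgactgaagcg
CBX5: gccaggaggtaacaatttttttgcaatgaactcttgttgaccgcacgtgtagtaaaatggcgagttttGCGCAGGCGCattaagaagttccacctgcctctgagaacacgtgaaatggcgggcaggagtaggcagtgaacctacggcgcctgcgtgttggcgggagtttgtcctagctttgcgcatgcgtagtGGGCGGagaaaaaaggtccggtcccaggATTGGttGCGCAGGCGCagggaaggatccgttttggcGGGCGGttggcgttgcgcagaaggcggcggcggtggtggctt

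The SP and KLF motif was in 6 of the 9 member windows, against 44.6% of 27305 promoter windows, and CCAAT in 5 of 9, against 35.7%. The pairs differed in their matches. MPHOSPH8 carried 1 SP and KLF match and 2 CCAAT matches, while PPHLN1 carried 1 ETS match, 12 bases before its start, and no other. ATF7IP and CBX5 each held both SP and KLF and CCAAT matches, and CBX5 added NRF1 matches at 182 and 22 bases before the start. The NRF1 motif was in 1 of 9 member windows, against 6.3% of all, and ETS in 2 of 9, against 10.7%. CAGCAGG, in 10.3% of all windows, and TTTCGCGC, in 0.5%, were in 0 of 9, which says only that these letters are not in these windows.

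Depth lay between 6756704 and 20773963 counts per library, and each member had between 345 (MPHOSPH8) and 17047 (TRIM28) counts in a library. Levels below are TMM-scaled CPM (counts relative to the library total, after edgeR's scaling), and changes are log2 values of the edgeR quasi-likelihood fit, with p-values adjusted by Benjamini-Hochberg over all genes tested and called at an adjusted p under 0.05. CARHSP1 itself was at 19.5 ± 1.53 CPM in its knockdown against 152 ± 2.44 CPM in control (SD, n = 3 each), and ZIC2 at 272 ± 4.67 CPM in its knockdown against 566 ± 63.1 CPM in control. ZNF8 was at 15.4 ± 1.39 CPM in the cells labelled ZNF8 knockdown against 19.1 ± 2.85 CPM in control, which missed the threshold (log2 −0.32, adjusted p = 0.0664). In the CARHSP1 knockdown ZNF8 was lower by a like amount, at 24.9 ± 0.883 CPM against 30.7 ± 2.83 CPM in control (−0.29, adjusted p = 0.0379), so the ZNF8 results below compare the libraries as labelled. Naive markers summed to 850 to 881 CPM in naive control and 44.3 to 56.2 CPM in primed control H1 libraries, and to 316 to 334 CPM in naive and 38.2 to 44.1 CPM in primed H9 libraries. KLF17, a defining naive factor, stood at 0.07 CPM in naive H9 cells but 10.7 CPM in naive control H1 cells. Ectoderm markers summed to 1116 to 1300 CPM in ectoderm control and 70.7 to 82.4 CPM in primed control libraries, with the neural genes PAX6 at 2.23 CPM and SOX1 at 11.8 CPM in ectoderm controls.

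**Figure D1:**
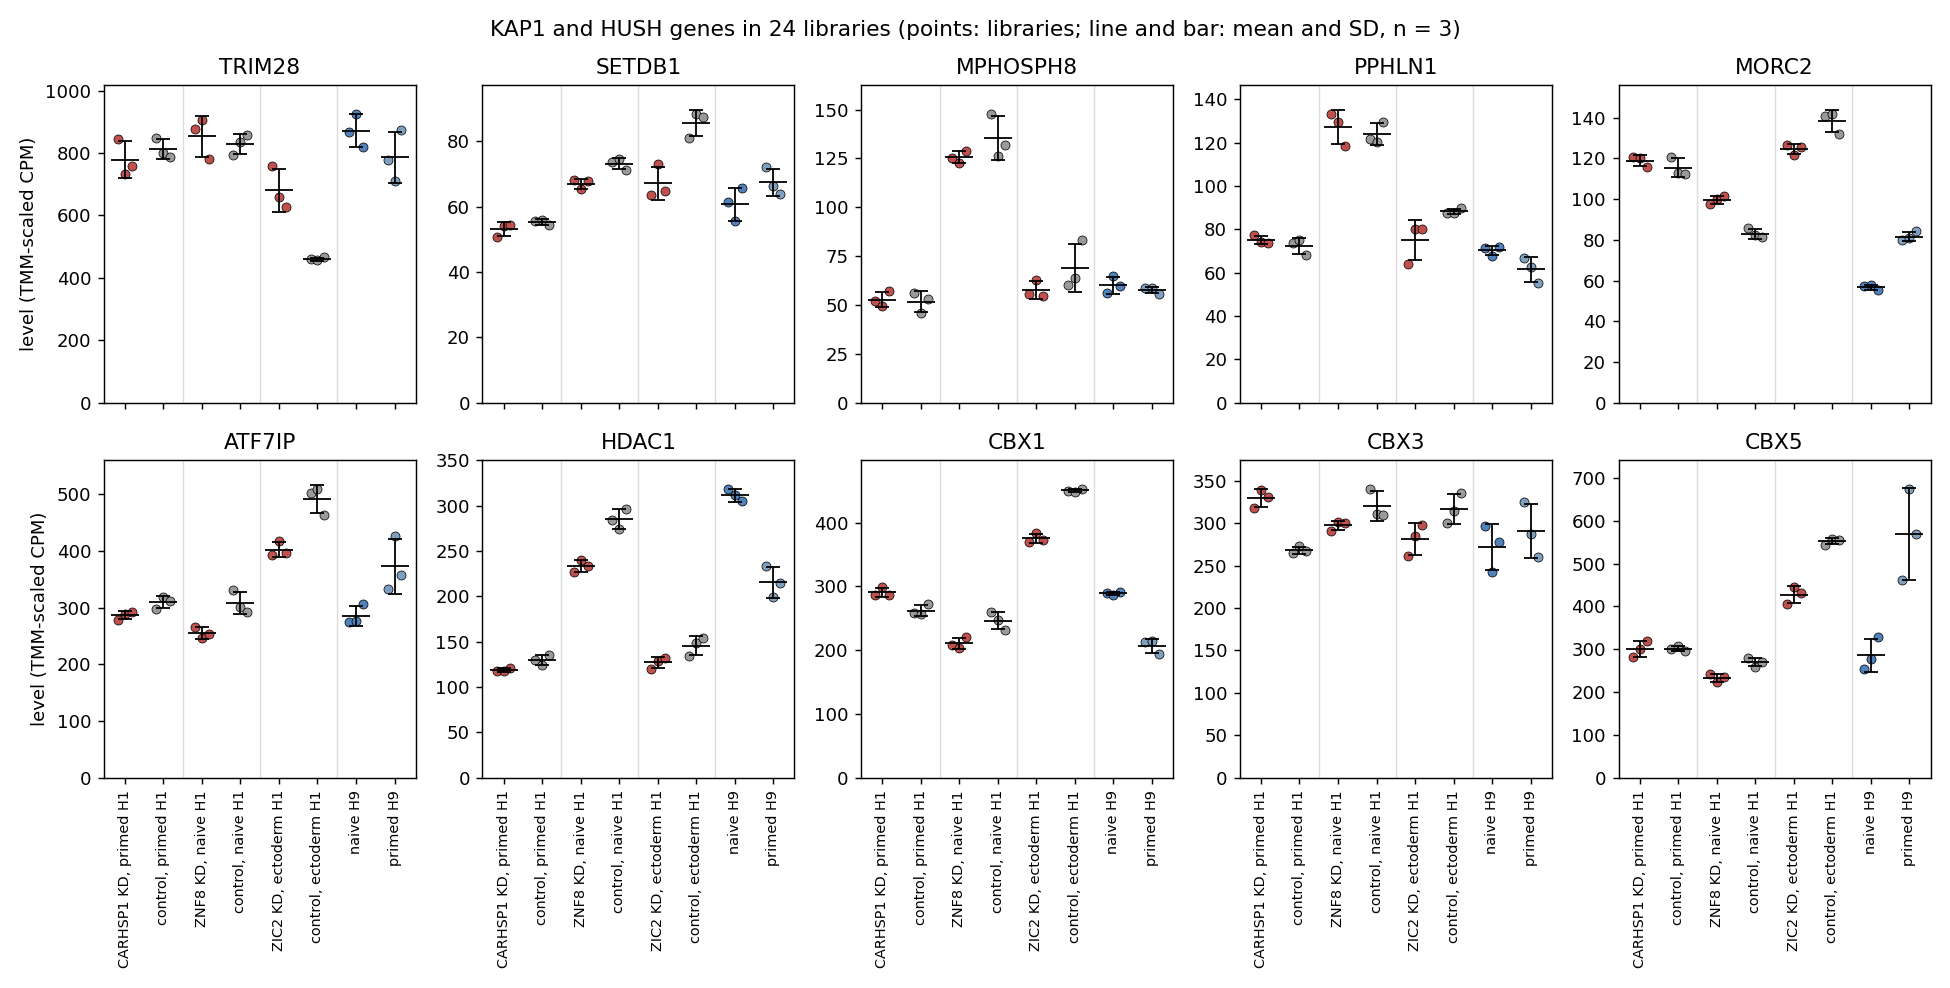
Level of each gene in TMM-scaled CPM (linear axis from 0) in all 24 libraries, with the mean and SD of 3 libraries per group. TRIM28 is lowest in ectoderm controls, MPHOSPH8 and PPHLN1 are highest in both naive H1 groups, and CBX3 varies least.

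Per kilobase of gene length, TRIM28 was the most abundant member in 7 of the 8 groups, at 158 to 202 CPM per kb. In nontargeting ectoderm cells CBX1 led, at 148 ± 0.786 CPM per kb, ahead of TRIM28 at 107 ± 1.14 CPM per kb. CBX1, CBX3 and HDAC1 followed TRIM28 elsewhere, and the HUSH genes MPHOSPH8 and PPHLN1, MORC2 and SETDB1 lay lower. PPHLN1 was at 5.78 ± 0.180 CPM per kb and MORC2 at 5.23 ± 0.118 CPM per kb in naive H9 cells, where MORC2 was the lowest of the 10.

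**Figure D2:**
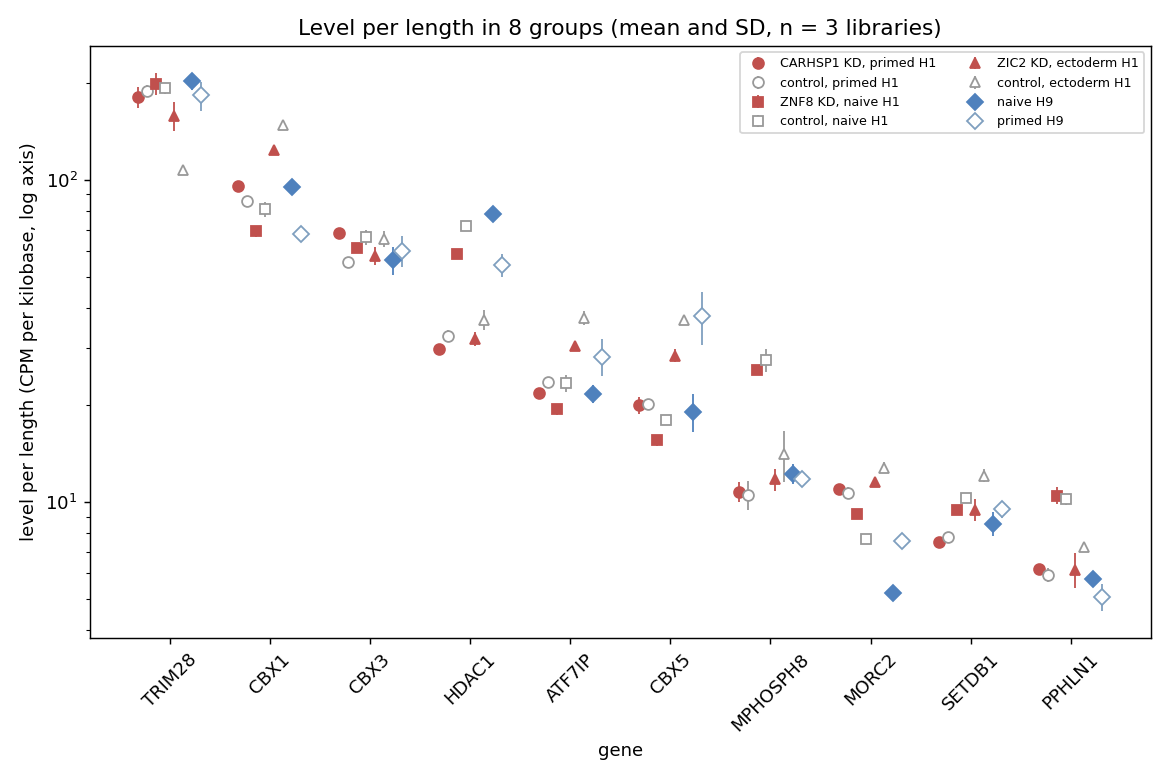
Level per length in CPM per kilobase (log axis) of the 10 genes in the 8 groups, as the mean and SD of 3 libraries. TRIM28 lies highest in 7 groups, between 158 and 202 CPM per kb, and CBX1 lies above it in ectoderm controls.

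Across the 8 groups the mean level of CBX3 spanned 0.30 on the log2 scale, with the highest mean of 330 CPM in CARHSP1 knockdown cells and the lowest of 268 CPM in nontargeting primed H1 cells. Of 18144 genes, 99.6% had a wider span, and the median span of all was 1.23. HDAC1 spanned 1.38 and MPHOSPH8 1.37, the widest of the 10. For MPHOSPH8 the top of the order held ZNF8 knockdown naive H1 at 126 ± 3.15 CPM and nontargeting naive H1 at 135 ± 11.2 CPM, whose libraries overlapped. The other 6 groups stood at 51.7 to 69.0 CPM, with all their libraries below. TRIM28 had 6 groups between 779 and 872 CPM, each overlapping its neighbour in the order. Below them lay ZIC2 knockdown ectoderm at 681 ± 69.3 CPM, which overlapped the CARHSP1 knockdown group, and nontargeting ectoderm at 460 ± 4.89 CPM, which overlapped no group. As a description over 8 group means of log2(CPM + 1), the most alike of 45 pairs were MPHOSPH8 with PPHLN1 (Pearson r = 0.945) and ATF7IP with CBX5 (r = 0.903). The least alike were TRIM28 with ATF7IP (r = −0.887) and MORC2 with HDAC1 (r = −0.876). Several groups share a cell state and line, so these are not independent points.

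The ZNF8 knockdown in naive H1 cells bears on a KRAB zinc finger gene, the class that KAP1 serves. Of the 10 genes, 5 changed, against 24.2% of all genes tested: MORC2 rose, with 11.9% of all genes higher, and ATF7IP, HDAC1, CBX1 and CBX5 fell, with 12.3% lower. The changes were small, between 1.17-fold and 1.23-fold. The median size of change was 0.18 for the 10 genes and 0.19 for all genes (log2).

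TRIM28 itself was at 819, 851 and 743 CPM in ZNF8 knockdown libraries against 754, 795 and 819 CPM in control. These overlapped, with a log2 change of 0.03 (95% interval −0.07 to 0.13; adjusted p = 0.724). Its methyltransferase SETDB1 was at 63.5, 61.3 and 64.5 CPM in the knockdown against 69.8, 70.8 and 67.9 CPM in control, and although these did not overlap the change missed the threshold (−0.14, adjusted p = 0.152). ATF7IP had 249, 232 and 241 CPM in the knockdown against 313, 286 and 280 CPM in control. Every knockdown library lay below every control (log2 −0.29 ± 0.052 SE; adjusted p = 5.79e-05).

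The HUSH subunits MPHOSPH8 and PPHLN1 were at log2 −0.12 (adjusted p = 0.153) and 0.03 (adjusted p = 0.799), with overlapping libraries. Their effector MORC2 was at 91.2, 93.8 and 96.6 CPM in ZNF8 knockdown libraries against 81.4, 78.1 and 77.5 CPM in control. It was higher in all 3 knockdown libraries than in any control (0.25 ± 0.065; adjusted p = 0.00415). The deacetylase HDAC1 had 212, 225 and 222 CPM in the knockdown against 270, 261 and 283 CPM in control, with no overlap (−0.30 ± 0.051; adjusted p = 1.67e-05).

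Of the HP1 genes, CBX1 was at 195, 192 and 210 CPM in ZNF8 knockdown libraries against 246, 235 and 222 CPM in control (−0.24 ± 0.054; adjusted p = 0.000836). CBX5 was at 226, 210 and 224 CPM in the knockdown against 264, 247 and 258 CPM in control (−0.22 ± 0.051; adjusted p = 0.00127). Both groups separated in full, as they did for CBX3, whose change missed the threshold (−0.12, adjusted p = 0.0728). All 5 calls held in each alternative run. Naive markers moved with them, summing to 494 to 514 CPM in the knockdown and 850 to 881 CPM in control, with KLF17 at 1.51 CPM in the knockdown and 10.7 CPM in control. Trophoblast and amnion markers summed to 37.3 to 40.7 CPM in the knockdown and 97.6 to 103 CPM in control, and 6 of 7 tested fell. Fibroblast markers summed to 390 to 430 CPM in the knockdown and 302 to 313 CPM in control, but only 3 of the 9 could be tested, and all 3 rose. Their part in the result was not tested, and in bulk RNA fewer cells of a type and less RNA per cell cannot be told apart.

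Depletion of ZIC2 during ectoderm differentiation moved 8 of the 10 genes, against 28.1% of all genes tested. TRIM28 rose, with 15.3% of all genes higher, and 7 others fell, with 12.8% lower. The median change of the 10 was −0.25, against −0.01 for all genes, and the median size was 0.27 against 0.25 (log2).

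TRIM28 had 772, 667 and 637 CPM in ZIC2 knockdown libraries against 469, 464 and 475 CPM in control. The lowest knockdown library lay above the highest control, a 1.48-fold difference (log2 0.56 ± 0.066; adjusted p = 9.34e-07). With trends of the changes with GC content and gene length removed, the difference was 0.16 (adjusted p = 0.0247). The longest TRIM28 transcript has 63.7% GC, above the other 9 members at 39.5 to 51.4%, and across genes the log2 change correlated with GC content (Spearman 0.33, a description over genes that are not independent).

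SETDB1 went the other way, at 64.8, 74.0 and 65.9 CPM in ZIC2 knockdown libraries against 82.5, 89.9 and 89.0 CPM in control. The groups did not overlap (−0.35 ± 0.081; adjusted p = 0.00233). Its partner ATF7IP was at 400, 423 and 404 CPM in the knockdown against 512, 519 and 472 CPM in control, again with no overlap (−0.29 ± 0.059; adjusted p = 0.000726). Among HP1 genes, CBX5 was at 413, 451 and 440 CPM in the knockdown against 555, 568 and 567 CPM in control (−0.37 ± 0.057; adjusted p = 3.50e-05). CBX1 was at 376, 389 and 379 CPM in the knockdown against 459, 456 and 462 CPM in control (−0.27 ± 0.055; adjusted p = 0.000971). In both, the controls lay within a narrow band above every knockdown library.

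PPHLN1 was at 65.3, 81.3 and 81.7 CPM in ZIC2 knockdown libraries against 89.3, 89.3 and 91.3 CPM in control (−0.24; adjusted p = 0.0408). HDAC1 was at 122, 130 and 135 CPM in the knockdown against 136, 152 and 157 CPM in control (−0.20; adjusted p = 0.0363), and CBX3 at 266, 288 and 303 CPM in the knockdown against 306, 320 and 342 CPM in control (−0.18; adjusted p = 0.0432). The groups did not overlap for any of the 3, yet these calls lie near the threshold. With DESeq2 the changes of PPHLN1, HDAC1 and CBX3 were −0.24, −0.20 and −0.17, with adjusted p = 0.0802, 0.0603 and 0.0506. Removing GC and length trends gave smaller changes of −0.16, −0.13 and −0.084, with adjusted p = 0.144, 0.169 and 0.318. With no filter on low counts HDAC1 and CBX3 were lost (0.0664 and 0.0718). All 3 calls were lost without ZIC2 knockdown replicate 1 (0.268, 0.154 and 0.225), where the PPHLN1 change was −0.14, without control replicate 2 (0.102, 0.127 and 0.105) and without control replicate 3 (0.0983, 0.134 and 0.153). PPHLN1 was also lost without control replicate 1 (0.0666), and HDAC1 and CBX3 without knockdown replicate 2 (0.0842 and 0.104).

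MPHOSPH8 and MORC2 missed the threshold. MPHOSPH8 was at 56.8, 63.8 and 55.4 CPM in ZIC2 knockdown libraries against 61.5, 64.7 and 84.6 CPM in control (−0.27; adjusted p = 0.0635), with control replicate 3 well above the other controls. Without control replicate 3 its change was −0.11 (adjusted p = 0.485), and without control replicate 1 it was −0.35 (adjusted p = 0.0201). MPHOSPH8 also passed with no filter on low counts (adjusted p = 0.0425), with the replicate block (0.0473) and in 1 fit of all H1 groups (0.0232). MORC2 was at −0.15 (95% interval −0.29 to −0.01; adjusted p = 0.0950), and passed in 1 fit of all H1 groups (adjusted p = 0.0486). Ectoderm markers summed to 828 to 912 CPM in the knockdown and 1116 to 1300 CPM in control, and of 8 tested 1 rose and 3 fell. Fibroblast markers summed to 226 to 255 CPM in the knockdown and 130 to 144 CPM in control, and 2 of 4 tested rose. Trophoblast and amnion markers summed to 7.67 to 9.91 CPM in the knockdown and 0.143 to 1.75 CPM in control, where 2 of the 8 could be tested and both rose. Their part in these changes was not tested.

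Among primed H1 cells with CARHSP1 knocked down, 2 of the 10 genes changed, against 20.2% of all genes tested, both of them HP1 genes that rose. Of all genes 10.3% were higher and 9.87% lower, and 0 of the 10 were lower. The median size of change was 0.06 for the 10 genes and 0.18 for all genes (log2).

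CBX3 had 325, 346 and 337 CPM in CARHSP1 knockdown libraries against 269, 279 and 272 CPM in control. Each knockdown library lay above each control (0.30 ± 0.046; adjusted p = 6.30e-06). Over the alternative runs the CBX3 change ran from 0.20 to 0.32, with adjusted p at most 0.00042. Across genes the log2 change correlated with GC content at a Spearman value of −0.33. CBX1 was at 293, 305 and 291 CPM in the knockdown against 262, 262 and 278 CPM in control, also without overlap (0.15 ± 0.047; adjusted p = 0.0211). Removing GC and length trends ended that call (0.08, adjusted p = 0.180), as did a fit with all H1 groups (adjusted p = 0.0513) and leaving out knockdown replicate 2, control replicate 1 or control replicate 2 (adjusted p = 0.120, 0.107 and 0.107).

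TRIM28 was at 862, 747 and 772 CPM in CARHSP1 knockdown libraries against 865, 817 and 803 CPM in control, with overlap (−0.06, 95% interval −0.15 to 0.03; adjusted p = 0.369). Its direction turned once GC and length trends were removed (0.12, adjusted p = 0.0157), while without knockdown replicate 1 it was −0.12 (adjusted p = 0.0279). ATF7IP (−0.11, adjusted p = 0.0926) and HDAC1 (−0.13, adjusted p = 0.0920) missed the threshold, although in both every knockdown library lay below every control. With GC and length trends removed both passed, ATF7IP at −0.14 (adjusted p = 0.0106) and HDAC1 at −0.19 (adjusted p = 0.00622). SETDB1, MPHOSPH8, PPHLN1, MORC2 and CBX5 lay between −0.06 and 0.06, with overlapping libraries. For CBX5 the 95% interval ran from −0.10 to 0.09. Of 7 naive markers tested 6 fell, summing to 32.4 to 35.8 CPM in the CARHSP1 knockdown and 44.3 to 56.2 CPM in control, and of 6 core pluripotency markers 4 fell, summing to 3818 to 4019 CPM in the knockdown and 4090 to 4311 CPM in control. Fibroblast markers summed to 247 to 286 CPM in the knockdown and 289 to 309 CPM in control, and 2 of 6 fell. Their part in the changes was not tested.

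**Figure D3:**
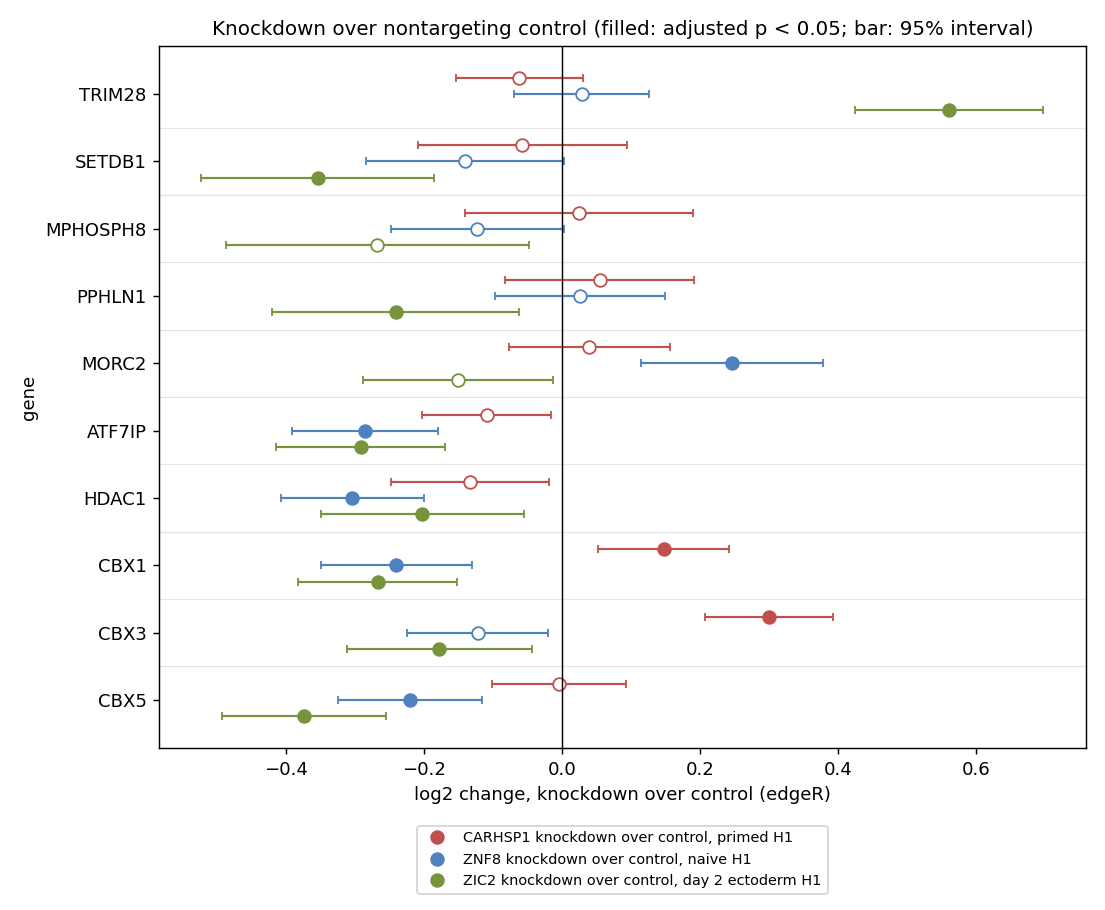
Log2 change of each gene in the 3 knockdowns over their controls, with the 95% interval of the edgeR fit. Filled points pass an adjusted p of 0.05. TRIM28 stands out at 0.56 as fitted with ZIC2 knocked down, and is at 0.16 with GC and length trends removed. CBX1 and CBX3 are higher with CARHSP1 knocked down but below 0 in the other knockdowns, and that CBX1 call is lost with those trends removed.

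Whether a gene's change differed between the 3 knockdown and control pairs was tested in 1 fit of the 18 H1 libraries, and the pairs share no library. Each target was knocked down in another cell state, so target and cell state cannot be told apart in these differences. The ZIC2 effect differed from the CARHSP1 effect for 6 of 10 genes, against 27.5% of all genes. TRIM28 was higher by 0.62 (adjusted p = 2.24e-07), and CBX3, CBX1, CBX5, SETDB1 and PPHLN1 were lower by −0.48, −0.42, −0.37, −0.30 and −0.30. With GC and length trends removed the TRIM28 difference was 0.03 (adjusted p = 0.802) and that of CBX3 −0.29 (adjusted p = 0.00111). The PPHLN1 call was lost there (−0.19, adjusted p = 0.192), and MORC2 passed (−0.27, adjusted p = 0.00910). The SETDB1 and PPHLN1 differences were lost without most single libraries, with adjusted p up to 0.0921 for SETDB1 and 0.179 for PPHLN1, both without ZIC2 knockdown replicate 1.

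ZNF8 and CARHSP1 effects differed for 2 of 10 genes, against 17.3% of all genes, namely CBX3 (−0.41, adjusted p = 0.000194) and CBX1 (−0.38, adjusted p = 0.000248). DESeq2 called MORC2 (0.22, adjusted p = 0.0344) and CBX5 (−0.20, adjusted p = 0.0349) as well. CBX5 also passed once GC and length trends were taken out (−0.22, adjusted p = 0.0122), without CARHSP1 knockdown replicate 1 (adjusted p = 0.0218) and without naive control replicate 2 (adjusted p = 0.0456). Between the ZNF8 and ZIC2 effects 2 of 10 genes differed, against 17.9% of all genes, namely TRIM28 (−0.52, adjusted p = 8.22e-06) and MORC2 (0.41, adjusted p = 0.000429). With GC and length trends removed the TRIM28 difference was −0.17 (adjusted p = 0.0405). As fitted, ATF7IP did not differ between the ZNF8 and ZIC2 effects past the threshold (0.02, 95% interval −0.14 to 0.17), and neither did CBX1 (0.04, −0.11 to 0.19).

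Genes that work beside the 10 were read from lists chosen by function. Their counts stand against 24.2% of all genes called in the ZNF8, 28.1% in the ZIC2 and 20.2% in the CARHSP1 knockdown. Of 9 HUSH and MORC partners, 8 could be tested, and the share called was below that of all genes in each knockdown. In the ZIC2 knockdown 2 of the 8 fell, TASOR, the scaffold subunit of HUSH (−0.34, adjusted p = 0.00750), and the remodeller SMARCAD1 (−0.20, adjusted p = 0.0322). TASOR rose in the CARHSP1 knockdown (0.45, adjusted p = 9.69e-06), the only one of 8 that passed there. In the ZNF8 knockdown 1 of 8 passed, ATF7IP2, a relative of ATF7IP, at −0.73 (adjusted p = 0.000406). TRIM24, which is built like TRIM28, fell in the ZIC2 knockdown to 666 ± 19.9 CPM against 947 ± 37.6 CPM in control (−0.51, adjusted p = 3.88e-07) and in the CARHSP1 knockdown (−0.37, adjusted p = 2.34e-07).

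Of 12 NuRD subunits, 1 rose and 5 fell in the ZNF8 knockdown, where 11.9% of all genes were higher and 12.3% lower, among them MTA2 (−0.60, adjusted p = 4.78e-07) and the remodeller CHD3 (−0.54, adjusted p = 4.31e-07). In the ZIC2 knockdown, with 15.3% of all genes higher and 12.8% lower, 4 rose and 3 fell, the lower ones including CHD3 (−0.50, adjusted p = 5.74e-05) and MTA3 (−0.44, adjusted p = 7.94e-06). In the CARHSP1 knockdown 3 rose and 1 fell, against 10.3% of all genes higher and 9.87% lower, with HDAC2 (0.24, adjusted p = 9.13e-05) and RBBP7 (0.25, adjusted p = 0.000475) among those higher. KAP1 is a SUMO ligase whose silencing depends on that modifier. Read against the same shares, SUMO pathway genes, 12 in all, had 1 higher and 3 lower in the ZNF8 knockdown, 0 higher and 5 lower in the ZIC2 knockdown and 4 higher and 1 lower in the CARHSP1 knockdown. The median change of the SUMO list was −0.08, −0.12 and 0.10 in the ZNF8, ZIC2 and CARHSP1 knockdowns, against −0.01, −0.01 and −0.002 for all genes.

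Naive and primed cells were compared in each line. Comparisons among the H1 controls share libraries with each other and with the knockdowns, so each is given by its own values only. In H1 controls 8 of 10 genes changed, against 71.1% of all genes, 5 higher (35.0% of all genes) and 3 lower (36.1%) in naive cells. In H9 5 of 10 changed, against 51.5% of all genes, 2 higher (25.4%) and 3 lower (26.1%).

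MPHOSPH8 was at 145, 124 and 131 CPM in naive control H1 libraries against 56.1, 45.7 and 53.1 CPM in primed control libraries. This was a 2.56-fold difference with wide separation (log2 1.36 ± 0.070; adjusted p = 1.08e-26). In H9 the same gene was at 57.1, 65.9 and 60.7 CPM in naive libraries against 59.6, 61.0 and 56.9 CPM in primed libraries, which overlapped (0.05, 95% interval −0.15 to 0.25; adjusted p = 0.701).

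Its HUSH partner PPHLN1 was at 120, 119 and 129 CPM in naive control H1 libraries against 73.5, 74.9 and 68.1 CPM in primed control libraries. All naive libraries were higher (0.76 ± 0.064; adjusted p = 8.63e-17). In H9 it was at 72.7, 69.1 and 73.2 CPM in naive libraries against 68.1, 64.9 and 56.7 CPM in primed libraries (0.18; adjusted p = 0.130), and with GC and length trends removed that change was 0.39 (adjusted p = 0.000636). MORC2 fell in both lines, to 84.3, 81.1 and 80.4 CPM in naive control H1 against 121, 112 and 112 CPM in primed control libraries (−0.49 ± 0.063; adjusted p = 2.50e-10). In H9 it was at 58.2, 58.7 and 56.2 CPM in naive against 81.2, 83.6 and 86.2 CPM in primed libraries (−0.54 ± 0.091; adjusted p = 6.37e-05). Within each line no naive library reached a primed one.

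HDAC1 rose in naive cells of both lines. It had 279, 271 and 293 CPM in naive control H1 against 130, 124 and 136 CPM in primed control libraries, a 2.16-fold difference (1.11 ± 0.051; adjusted p = 1.77e-29). In H9 it had 325, 317 and 310 CPM in naive against 237, 206 and 220 CPM in primed libraries (0.52 ± 0.082; adjusted p = 3.00e-05). Neither line showed overlap.

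TRIM28 did not pass in either line, at 0.01 in H1 (95% interval −0.07 to 0.09; adjusted p = 0.789) and 0.14 in H9 (−0.04 to 0.32; adjusted p = 0.180). With GC and length trends removed the H1 change was 0.14 (adjusted p = 0.000235). SETDB1 was at 72.3, 73.5 and 70.5 CPM in naive control H1 against 55.6, 55.7 and 54.2 CPM in primed control libraries, without overlap (0.39 ± 0.074; adjusted p = 4.61e-06). In H9 SETDB1 was at −0.16 (adjusted p = 0.193), with overlap. ATF7IP was at −0.02 in H1 (adjusted p = 0.690), while in H9 it had 280, 282 and 312 CPM in naive against 339, 442 and 366 CPM in primed libraries (−0.39 ± 0.096; adjusted p = 0.00205). All naive H9 libraries lay below all primed ones, and the H9 change was −0.15 (adjusted p = 0.0296) with GC and length trends removed.

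Of the HP1 genes, CBX5 fell the most in H9, with 258, 282 and 335 CPM in naive against 469.7, 699.5 and 582 CPM in primed libraries. The primed libraries spread widely but stayed above every naive one (−1.0 ± 0.120; adjusted p = 1.12e-06). In H1 it had 274, 256 and 268 CPM in naive control against 301, 306 and 296 CPM in primed control libraries (−0.18 ± 0.045; adjusted p = 0.000391). CBX1 had 296, 292 and 297 CPM in naive H9 against 216, 222 and 199 CPM in primed H9 libraries, with no overlap (0.47 ± 0.081; adjusted p = 6.72e-05). In H1 controls it was at −0.11 (adjusted p = 0.0421), with overlap. That H1 call was lost with DESeq2 (adjusted p = 0.0953), without primed replicate 2 or 3 (0.0517 and 0.227) and without naive replicate 2 or 3 (0.105 and 0.305), among others. CBX3 had 335, 306 and 307 CPM in naive control H1 against 264, 271 and 267 CPM in primed control libraries (0.24 ± 0.046; adjusted p = 3.94e-06), a change of 0.14 (adjusted p = 0.00204) with GC and length trends removed. In H9 CBX3 was at −0.10 (adjusted p = 0.382), with overlap.

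Markers of other cell types moved with the cell state. Fibroblast markers summed to 155 to 179 CPM in naive H9 and 281 to 363 CPM in primed H9 libraries, with 1 of 4 tested higher and 3 lower. In H1 controls they summed to 302 to 313 CPM in naive and 289 to 309 CPM in primed libraries, with 1 of 6 higher and 4 lower. Trophoblast and amnion markers summed to 8.11 to 12.2 CPM in naive H9 and 43.5 to 48.2 CPM in primed H9 libraries. Only 1 of these 8 markers was over 1 CPM in primed H9 cells, and of 3 tested 2 were higher and 1 lower in naive cells. In H1 controls they summed to 97.6 to 103 CPM in naive and 13.8 to 16.7 CPM in primed libraries, with 6 of 7 tested higher and 1 lower. Their part in the changes was not tested.

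The difference between the lines was itself tested, from the raw counts of both tables, as the naive over primed change in H9 minus that in H1 controls. It passed for 8 of 10 genes, against 49.9% of all genes. MPHOSPH8 differed most, by −1.32 ± 0.125 (adjusted p = 2.65e-10), then CBX5 by −0.83 ± 0.132 (adjusted p = 4.52e-06). HDAC1, PPHLN1, SETDB1, ATF7IP and CBX3 differed by −0.60, −0.59, −0.55, −0.38 and −0.36, and CBX1 by 0.57. With GC and length trends removed the difference was −0.14 for ATF7IP (adjusted p = 0.0897), −0.38 for PPHLN1 (0.00246) and −0.21 for CBX3 (0.0287). TRIM28 (0.12, adjusted p = 0.317) and MORC2 (−0.05, 95% interval −0.27 to 0.16; adjusted p = 0.712) did not pass. Line, table, doxycycline and construct cannot be told apart in this comparison. Naive markers summed to 316 to 334 CPM in naive H9 and 850 to 881 CPM in naive control H1 libraries, and trophoblast and amnion markers to 8.11 to 12.2 CPM in naive H9 and 97.6 to 103 CPM in naive control H1 libraries. Their part in the difference was not tested.

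**Figure D4:**
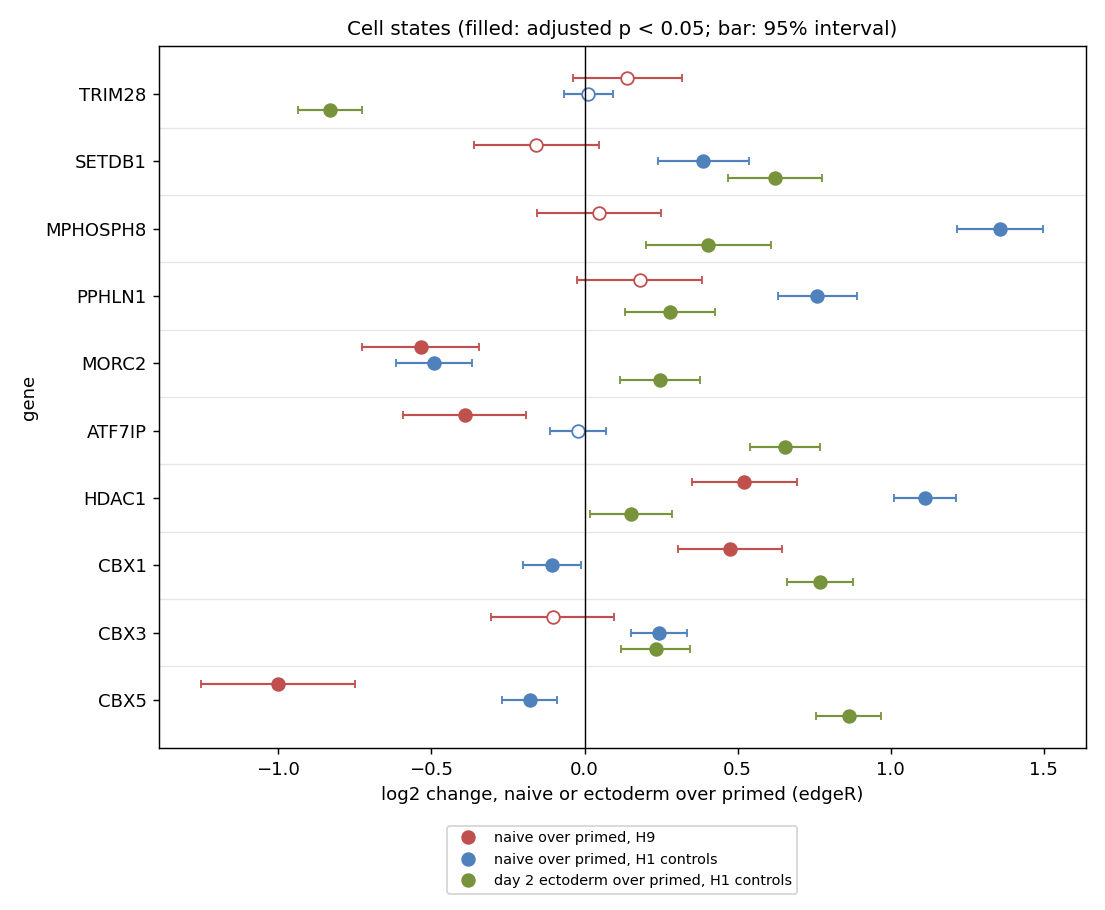
Log2 change of each gene in naive over primed H9 cells, in naive over primed H1 controls and in day 2 ectoderm over primed H1 controls, with the 95% interval. Filled points pass an adjusted p of 0.05. MPHOSPH8 is at 1.36 in H1 and 0.05 in H9. TRIM28 is at −0.83 in ectoderm as fitted, and at −0.11 with GC and length trends removed.

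Ectoderm controls differed from primed controls in all 10 genes, against 62.8% of all genes tested. TRIM28 fell, with 32.1% of all genes lower, and the other 9 rose, with 30.7% higher. The median change of the 10 was 0.34, against −0.002 for all genes, and the median size was 0.51 against 0.48 (log2).

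TRIM28 had 467, 463 and 472 CPM in ectoderm control libraries against 872, 817 and 807 CPM in primed control libraries. This was a 1.78-fold lower level with wide separation (log2 −0.83 ± 0.052; adjusted p = 2.53e-14). With GC and length trends removed the change was −0.11 (adjusted p = 0.0613), and the call was lost. Across genes the log2 change correlated with GC content at a Spearman value of −0.35. SETDB1 was at 82.3, 89.7 and 88.6 CPM in ectoderm against 57.1, 57.2 and 55.5 CPM in primed controls (0.62 ± 0.075; adjusted p = 3.37e-08). ATF7IP was at 511, 518 and 469 CPM in ectoderm against 306, 326 and 319 CPM in primed controls (0.65 ± 0.055; adjusted p = 2.30e-11). Neither gene showed any overlap.

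CBX5 was at 554, 567 and 564 CPM in ectoderm controls against 309, 315 and 303 CPM in primed controls (0.86 ± 0.052; adjusted p = 1.24e-14). CBX1 was at 458, 456 and 460 CPM in ectoderm against 264, 262 and 279 CPM in primed controls (0.77 ± 0.053; adjusted p = 2.90e-13). Both were high in all 3 ectoderm libraries. MPHOSPH8 was at 61.4, 64.6 and 84.2 CPM in ectoderm against 57.6, 47.0 and 54.3 CPM in primed controls (0.40 ± 0.100; adjusted p = 0.000909), without overlap. Removing GC and length trends gave 0.23 for that change (adjusted p = 0.0466), and it was 0.25 without ectoderm replicate 3 (adjusted p = 0.0198). MORC2 (0.25, adjusted p = 0.00142), PPHLN1 (0.28, adjusted p = 0.00134) and CBX3 (0.23, adjusted p = 0.000637) also separated in full. PPHLN1 was at 0.10 (adjusted p = 0.210) with GC and length trends removed, and CBX3 turned to −0.02 (adjusted p = 0.762). HDAC1 overlapped (0.15, adjusted p = 0.0424), and its call was lost with DESeq2 (0.0777), with those trends removed (0.665), and without primed replicate 1 or 2 (0.0984 and 0.186) or ectoderm replicate 2 or 3 (0.0838 and 0.115). Fibroblast markers summed to 130 to 144 CPM in ectoderm and 289 to 309 CPM in primed controls, and all 6 tested fell. Trophoblast and amnion markers summed to 0.143 to 1.75 CPM in ectoderm and 13.8 to 16.7 CPM in primed controls, and both tested fell. Their part in these changes was not tested.

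**Figure D5:**
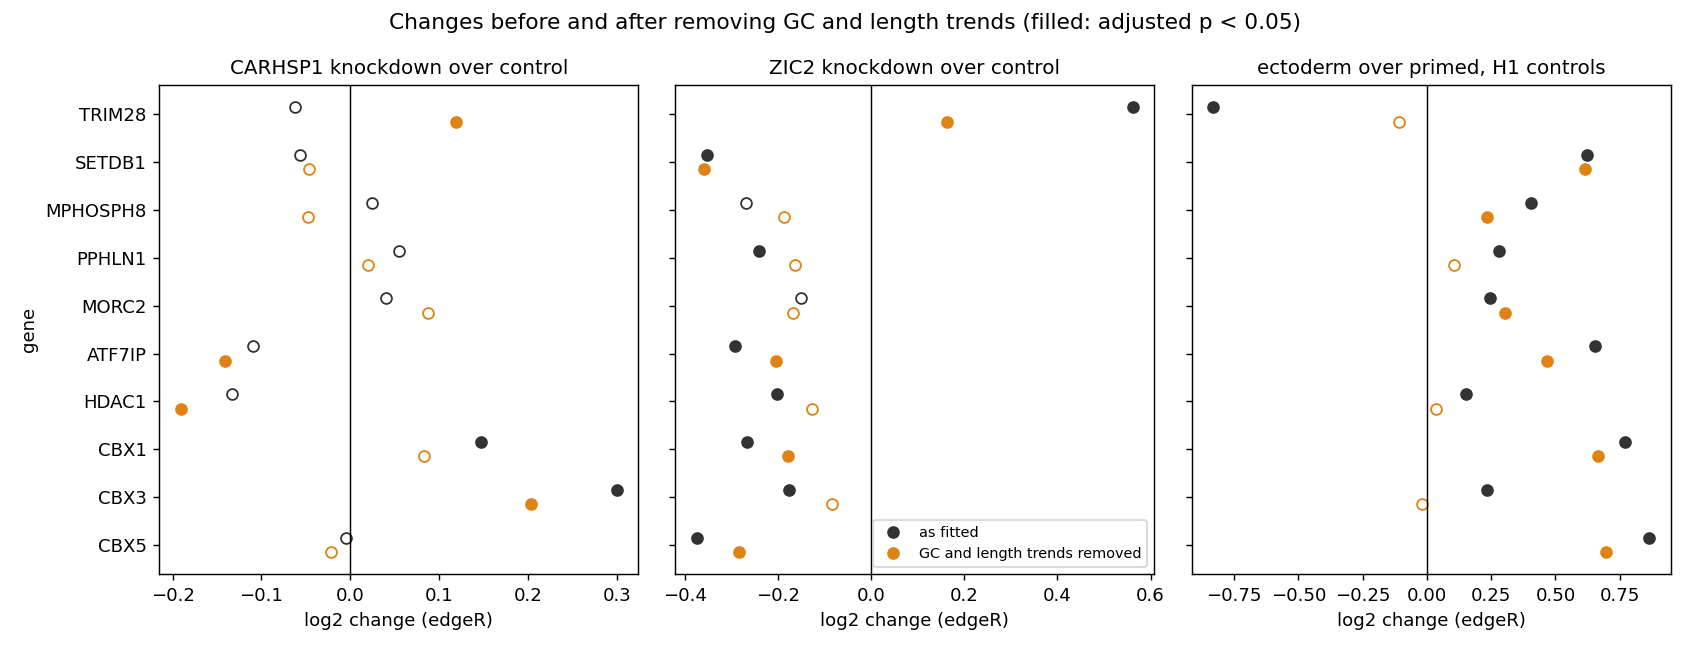
Log2 change of each gene as fitted and with trends of the change with GC content and gene length removed, in 3 comparisons. Filled points pass an adjusted p of 0.05. TRIM28 moves most, to 0.16 in the ZIC2 knockdown and −0.11 in ectoderm over primed controls.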

How the data were processed

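Polyadenylated RNA of 24 libraries was measured by sequencing, with stranded mRNA kits per the labels' protocols. Per the submitters' processing notes, HISAT2 was used with the build GRCh38. The sources used here do not say how reads were counted into genes, nor with which annotation and strand setting. The authors deposited raw counts per gene, whole numbers that are not normalized, in 1 table of 18 H1 libraries and 1 table of 6 H9 libraries. The gene length used for levels per kilobase was deposited by the authors with the H1 counts. Another 27 columns of that table match no label of these samples and were not used.

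Groups were taken from the sample titles. From the deposited counts, each comparison was computed on its own groups in R 4.3.3 with edgeR 4.0.16, using filterByExpr, TMM scaling and the 2-sided quasi-likelihood F test over all genes, adjusted by Benjamini-Hochberg at a threshold of 0.05. CPM values in a comparison come from that fit, and levels across groups from all 24 libraries scaled together. Differences of changes are contrasts of group means. SE values were derived from the F statistic. Alternatives were DESeq2 1.42.0, its size factors in edgeR, no filter on low counts, all H1 groups in 1 fit and a replicate block. Others were removal of trends with GC content and gene length by the lowess function of R (span 0.3), plain CPM for levels, and leaving out each library. GC content came from the longest transcript in GENCODE 29. The fits were tested on simulated data with 200 changed genes.

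All 10 members are named in every comparison. Of each related list, up to 2 genes with the smallest adjusted p were named among those that passed with the groups fully separated, and the text gives some of these. The members and lists were chosen with earlier results of these data known. Replicates differed by a chi-square per degree of freedom of 2.44 to 9.16 over genes with 20 or more counts, so each library was counted as 1 sample. Biological coefficients of variation ranged from 6.13% (naive over primed H1 controls) to 9.67% (H9), with 9.25% in the ZIC2 comparison.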

Additional observations from a re-analysis of the deposited data

Results flagged for a closer look

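For 8 of the 10 genes, against 49.9% of all genes, the naive over primed change differed between the lines. The test was of the change in H9 minus that in H1 controls on the log2 scale (edgeR, Benjamini-Hochberg adjusted over all genes). The HUSH subunits MPHOSPH8 and PPHLN1 differed by −1.32 (adjusted p = 2.65e-10) and −0.59 (adjusted p = 9.19e-05). SETDB1 and its partner ATF7IP differed by −0.55 (adjusted p = 0.000265) and −0.38 (adjusted p = 0.00446). HDAC1 differed by −0.60 (adjusted p = 5.10e-06). Of the HP1 genes, CBX5 differed by −0.83 (adjusted p = 4.52e-06), CBX3 by −0.36 (adjusted p = 0.00725) and CBX1 by 0.57 (adjusted p = 5.47e-06), the last being the positive one. All 8 stayed past the threshold when any single library was left out. With GC and length trends removed the ATF7IP difference was −0.14 (adjusted p = 0.0897), and its call was lost. Line, table, doxycycline and construct cannot be told apart in this test. Groups of 3 libraries are too small for a check of single outlying libraries.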

How the results depend on the processing

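Of single-gene results under the alternatives run, 1318 kept direction and side of the threshold, 69 lost and 28 gained the call, and 35 turned direction. Counts of called genes in the related lists, which are given as fitted, moved in 130 cases and held or nearly held in 885. Removing GC and length trends moved the number of member calls in the CARHSP1 knockdown to 4 of 10, in the ZIC2 knockdown to 5 and in ectoderm over primed controls to 6, with and without the replicate block, from 2, 8 and 10. DESeq2 gave 5 for the ZIC2 knockdown and 4 for the ZNF8 minus CARHSP1 difference, and 1 fit of all H1 groups gave 1 for the CARHSP1 knockdown. With a library left out, member calls ran from 1 to 3 in the CARHSP1 knockdown, from 5 to 8 in the ZIC2 knockdown and from 9 to 10 in ectoderm. Calls over all genes in the CARHSP1 knockdown, 3152 as reported, ran from 2045, without control replicate 1, to 3410, and were 2096 without knockdown replicate 2.

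Directions that turned with GC and length trends removed were those of TRIM28 in the CARHSP1 knockdown (0.12, also 0.12 with the block), the ZNF8 knockdown (−0.029, −0.029 with the block), the line difference (−0.12) and the ZNF8 minus CARHSP1 difference (−0.14). Others were MPHOSPH8 in the CARHSP1 knockdown (−0.048, −0.042 with the block), CBX3 in ectoderm (−0.020, −0.022 with the block), PPHLN1 in ZNF8 minus CARHSP1 (0.0014), HDAC1 in ZIC2 minus CARHSP1 (0.037) and ATF7IP in ZNF8 minus ZIC2 (−0.078). Beyond the construction of the alternative, the cause was not tested. Near-zero values that turned with a library left out ran, in the CARHSP1 knockdown, from −0.049 to 0.040 for CBX5 and −0.046 to 0.089 for MPHOSPH8, and from −0.0085 to 0.088 for TRIM28 in the ZNF8 knockdown. In naive over primed cells they ran from −0.0019 to 0.10 for MPHOSPH8 in H9, and in H1 from −0.0066 to 0.046 for TRIM28 and −0.071 to 0.020 for ATF7IP. For ZNF8 minus CARHSP1, PPHLN1 ran from −0.055 to 0.043, and for ZNF8 minus ZIC2, ATF7IP ran from −0.017 to 0.068, CBX1 from −0.0023 to 0.076 and MPHOSPH8 from −0.0085 to 0.24.

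Whether replicate numbers pair the libraries was not settled: same-number deviations correlated between −0.12 and 0.15. The own number was the best match for every replicate of the CARHSP1 comparison, at 0.011 to 0.028, and for none of the ZNF8 comparison. With the replicate block, member calls were 3 in the CARHSP1, 5 in the ZNF8 and 9 in the ZIC2 knockdown, 5 in H9, 7 in naive H1 and 10 in ectoderm. A count of 345 to 17047 per member and library, with 3 libraries a group, limits the precision.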

Other observations

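Genes on lists for H3K9 demethylation, for H3K9 methylation, and for H3.3 and histone chaperones were also read between cell states. There 71.1% of all genes were called in H1 and 51.5% in H9. In naive control H1 cells 5 of 8 H3K9 demethylase genes were higher and 2 lower than in primed controls, against 35.0% and 36.1% of all genes. KDM4A, a demethylase of H3K9me3, was 2.74-fold higher (log2 1.45, adjusted p = 9.13e-32). Of 7 genes on the H3K9 methyltransferase list, which includes the partner WIZ, 1 was higher and 3 lower. Among the lower was EHMT2, which encodes G9a, at −0.89 (adjusted p = 5.78e-19). Of 9 genes for H3.3 and histone chaperones, not all of them specific to H3.3, 0 were higher and 6 lower. Among the lower were CHAF1A, an assembly factor that is not a chaperone of H3.3, at −0.94 (adjusted p = 3.78e-23) and the remodeller ATRX at −0.63 (adjusted p = 3.97e-14). In naive H9 cells 5 of 8 demethylase genes were higher and 0 lower than in primed H9 cells, against 25.4% and 26.1% of all genes, with KDM4C at 1.06 (adjusted p = 9.41e-09). Of 6 genes on the methyltransferase list tested in H9, 2 were higher and 1 lower. Of 9 H3.3 and histone chaperone genes 0 were higher and 4 lower, with ATRX at −0.80 (adjusted p = 1.79e-05).

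TRIM24, built like TRIM28, was at 945 ± 39.0 CPM in ectoderm controls against 395 ± 13.1 CPM in primed controls (1.26, adjusted p = 2.23e-18). The direction was opposite to that of TRIM28 as fitted. With GC and length trends removed the TRIM28 change there was −0.11 (adjusted p = 0.0613). In naive over primed cells TRIM24 was at 0.68 in H1 controls (adjusted p = 6.34e-23) and −0.48 in H9 (adjusted p = 0.000115), and TASOR, the HUSH scaffold, was at 0.45 in H1 (adjusted p = 3.08e-07) and −0.46 in H9 (adjusted p = 0.00177). The difference between the lines was −1.17 for TRIM24 (adjusted p = 7.50e-12) and −0.92 for TASOR (adjusted p = 8.74e-07).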
